A study of Mus musculus with 12 samples.

Results

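Chemokines are small secreted proteins that steer leukocytes along a gradient, and their receptors cross the membrane and signal through inhibitory G proteins. Cxcr4 binds Cxcl12 and holds blood-forming and B lineage cells in the bone marrow, while Ccr1 and Ccr2 draw myeloid cells towards CC ligands. The genes described are the chemokine receptor genes Cxcr4, Ccr1, Ccr2 and Ackr3 and the ligand genes Ccl3, Ccl4, Ccl6, Ccl9 and Cxcl10. They were chosen by symbol, with earlier results of these data known, and matched to mouse Ensembl identifiers. They are 9 of the 55471 genes in the table, and all 9 were found. Of these, 7 passed a filter on low counts and were tested among 17197 genes. Cxcl10, with 62 counts over all libraries, and Ackr3, with no count, did not pass.

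RNA was sequenced from Ba/F3, a mouse cell line labelled as pro-B cells, in 12 libraries of 4 independent lines per group. The groups were SFPQ-ABL1 lines grown without IL-3, BCR-ABL1 lines grown without IL-3, and MSCV lines, which held the empty retroviral vector and grew in 0.5 ng/ml of mouse IL-3. Both fusions join a partner protein to the ABL1 tyrosine kinase. Every line was otherwise untreated. The presence of a fusion and the absence of IL-3 cannot be told apart in a comparison with MSCV, whereas SFPQ-ABL1 and BCR-ABL1 lines grew in the same conditions.

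Gene counts per library ran from 59355018 to 80616227, and levels are given as CPM, counts relative to library size with TMM factors, where 1 CPM stood for 61.2 to 82.2 counts. An exon of Abl1 that both fusions hold had 4.36 to 26.8 CPM in SFPQ-ABL1 lines and 9.23 to 20.8 CPM in BCR-ABL1 lines, against 0.0454 to 0.0529 CPM in MSCV lines (exon counts over gene totals, without TMM factors). SFPQ-ABL1 line 2 held the lowest of these fusion values and BCR-ABL1 line 4 the highest within its group. Of 12 pro-B markers, only Cd79a and Cd79b reached a mean of 1 CPM in any group. Il7r had no count in any library, and Pax5 and Ebf1 stayed under 0.05 CPM on average in each group. Most of the genes that define pro-B cells were thus at or near 0.

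Cxcr4 (ENSMUSG00000045382, chromosome 1, 128588199 to 128592293, mm10, minus strand) was the most abundant of the 9 genes in MSCV lines and fell in BCR-ABL1 lines. Per kilobase of exon, the mean level in MSCV lines was 239 CPM for Cxcr4, ahead of 76.4 CPM for Ccl9, 32.7 CPM for Ccl6 and 10.3 CPM for Ccr2. The promoter of Cxcr4 is shown because this gene had the smallest adjusted p of the 9 in both comparisons that involve BCR-ABL1. The window covers chr1:128592250-128592549 on the minus strand (RefSeq, GRCm38.p6), 250 bases before to 50 bases after the annotated start, printed 5′ to 3′. Capitals mark a match to the motif of NRF1 (GCGC, any 2 bases, GCGC), searched on both strands, and further on a match to the TATA box letters TATAAA, searched on the gene's strand.
Cxcr4: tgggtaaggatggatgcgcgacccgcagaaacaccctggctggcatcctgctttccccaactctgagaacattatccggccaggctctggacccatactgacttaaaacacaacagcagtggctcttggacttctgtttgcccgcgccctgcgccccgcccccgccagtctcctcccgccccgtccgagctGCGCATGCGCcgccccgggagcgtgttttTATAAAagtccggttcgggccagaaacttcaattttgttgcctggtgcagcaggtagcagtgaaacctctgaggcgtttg
The NRF1 letters lie 59 to 50 bases before the start and the TATA letters 30 to 25 bases before it. Among 32851 promoter windows of 300 bases, 6.23% held the NRF1 letters and 8.32% held the TATA letters. The motifs were chosen after the sequences had been seen, and a match describes letters only.

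Cxcr4 stood at 233, 220, 294 and 251 CPM in SFPQ-ABL1 lines 1 to 4. BCR-ABL1 lines 1 to 4 had 111, 70.4, 69.8 and 101 CPM, and MSCV lines 1 to 4 had 280, 489, 445 and 515 CPM. All 4 BCR-ABL1 lines lay below every line of both other groups, and SFPQ-ABL1 line 3 lay above MSCV line 1. The means were 250 ± 32.3 CPM with SFPQ-ABL1, 87.9 ± 20.9 CPM with BCR-ABL1 and 432 ± 105 CPM with MSCV (SD, n = 4 lines each). In BCR-ABL1 lines Cxcr4 was 4.92-fold lower than in MSCV lines (log2 fold change -2.30 ± 0.21 SE, edgeR adjusted p = 1.77e-05). In SFPQ-ABL1 lines it was 2.84-fold higher than in BCR-ABL1 lines (log2 fold change 1.51 ± 0.20 SE, edgeR adjusted p = 0.000307). Between SFPQ-ABL1 and MSCV the log2 difference of -0.79 ± 0.20 SE missed the threshold (edgeR adjusted p = 0.0601). Without MSCV line 1 it passed (log2 -0.94, edgeR adjusted p = 0.0211). In bulk RNA, fewer cells with the transcript and less transcript per cell cannot be told apart. Cxcl12, the ligand of Cxcr4, had 0 or 1 count in each library.

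Ackr3 (ENSMUSG00000044337, chromosome 1, 90203980 to 90216751), an atypical receptor that takes up Cxcl12 without G protein signalling, had no count in any of the 12 libraries. A count of 0 allows up to 3 counts, a level of 0.0365 to 0.0491 CPM depending on the library. At this depth no comparison of Ackr3 between groups could be made.

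**Figure D1:**
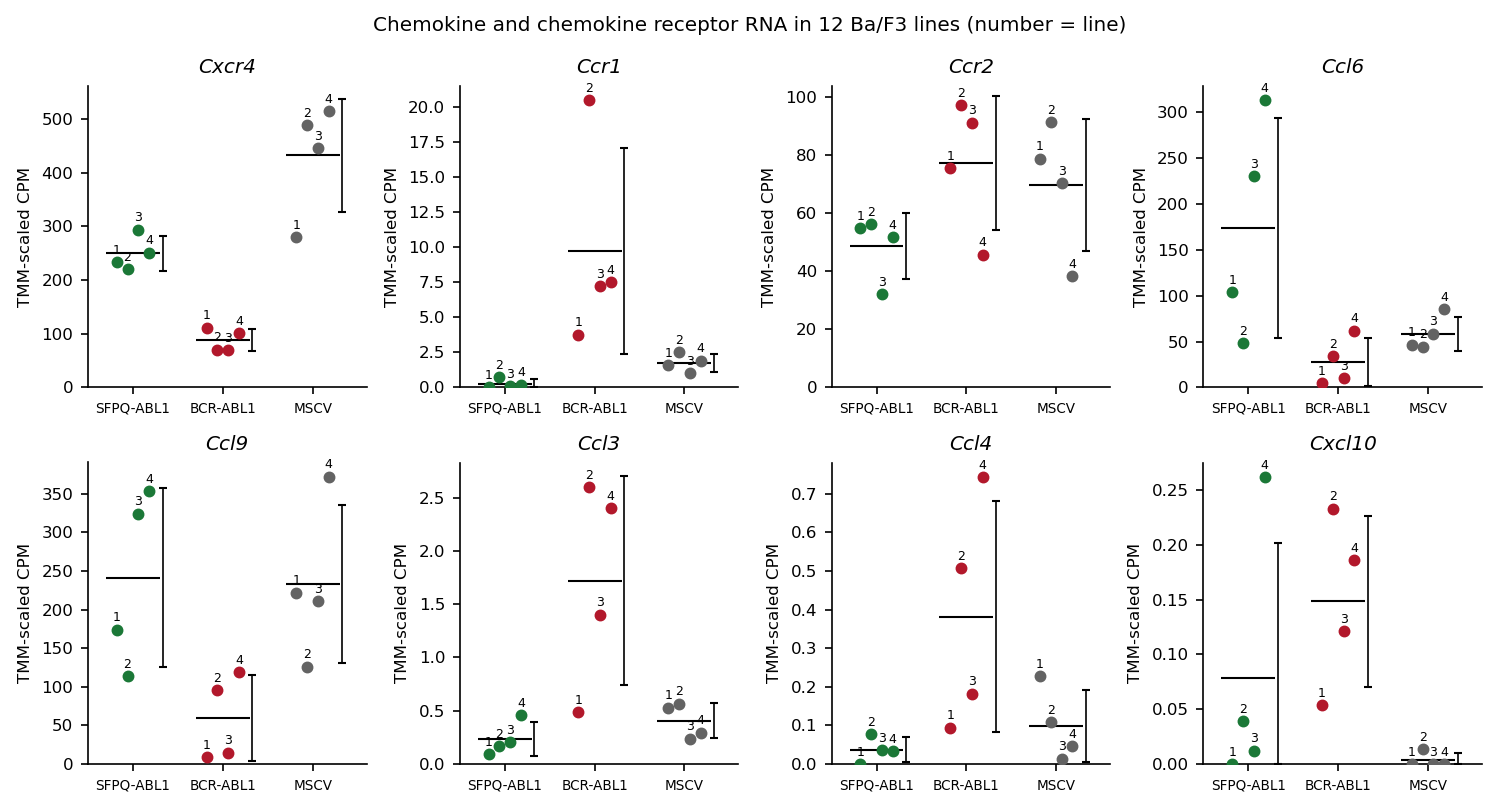
TMM-scaled CPM (linear axes from 0) of 8 genes in each line, with SFPQ-ABL1, BCR-ABL1 and MSCV from left to right. Points are lines labelled by number, horizontal bars are means of 4 lines, and vertical bars reach 1 SD and stop at 0. Cxcr4 is lowest in BCR-ABL1 lines (69.8 to 111 CPM), where Ccr1 is highest (3.77 to 20.5 CPM).

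Ccr1 (ENSMUSG00000025804, chromosome 9, 123962124 to 123968692, minus strand) encodes a receptor for several CC ligands, among them the products of Ccl3, Ccl6 and Ccl9. It was highest with BCR-ABL1 and close to undetected with SFPQ-ABL1. SFPQ-ABL1 lines 1 to 4 had 0.0134, 0.714, 0.109 and 0.196 CPM, between 1 and 55 counts. BCR-ABL1 lines 1 to 4 had 3.77, 20.5, 7.23 and 7.5 CPM, and MSCV lines 1 to 4 had 1.57, 2.51, 1.03 and 1.92 CPM. The groups did not overlap: every SFPQ-ABL1 line lay below every MSCV line, and every BCR-ABL1 line above. Line 2 was the highest in each of the 3 groups. Ccr1 was 5.54-fold higher in BCR-ABL1 lines than in MSCV lines (log2 fold change 2.47 ± 0.67 SE, edgeR adjusted p = 0.0132). Without BCR-ABL1 line 2 the difference was 1.81 on the log2 scale and no longer passed (edgeR adjusted p = 0.0562). In SFPQ-ABL1 lines Ccr1 was 37.3-fold lower than in BCR-ABL1 lines (log2 fold change -5.22 ± 0.79 SE, edgeR adjusted p = 0.000634). That log2 difference was -6.54 without SFPQ-ABL1 line 2 and -4.56 without BCR-ABL1 line 2. Against MSCV lines, SFPQ-ABL1 lines differed by -2.75 ± 0.74 SE on the log2 scale and missed the threshold (edgeR adjusted p = 0.0759), but passed without SFPQ-ABL1 line 2 (log2 -4.08, edgeR adjusted p = 0.0141).

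Ccr2 (ENSMUSG00000049103, chromosome 9, 124101950 to 124113557, plus strand), whose product leads monocytes out of the marrow in mice, differed less between groups than Cxcr4 and Ccr1. SFPQ-ABL1 lines 1 to 4 had 54.8, 56.1, 32 and 51.6 CPM. BCR-ABL1 lines 1 to 4 had 75.5, 97, 91 and 45.6 CPM, and MSCV lines 1 to 4 had 78.7, 91.3, 70.3 and 38.2 CPM. All groups overlapped, and line 4 was the lowest of the BCR-ABL1 and of the MSCV lines. No comparison passed the threshold. The log2 difference was 0.15 for BCR-ABL1 against MSCV (95% interval -0.44 to 0.74, edgeR adjusted p = 0.713) and -0.52 for SFPQ-ABL1 against MSCV (95% interval -1.11 to 0.08, edgeR adjusted p = 0.335). For SFPQ-ABL1 against BCR-ABL1 it was -0.67 (95% interval -1.27 to -0.07, edgeR adjusted p = 0.0914). That last comparison passed without BCR-ABL1 line 4 (log2 -0.85, edgeR adjusted p = 0.0343) or without MSCV line 4 (log2 -0.67, edgeR adjusted p = 0.0493). The difference between BCR-ABL1 and MSCV changed sign without MSCV line 4 (log2 -0.05). Of the 50-base stretches of Ccr2 exons, 1.91% also occurred in other genes.

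Over the 7 tested genes, 4 passed the test between BCR-ABL1 and MSCV. Ccr1 and Ccl3 were higher with BCR-ABL1, and Cxcr4 and Ccl9 were lower. Of all 17197 genes tested in that comparison, 32.1% passed, 15.8% higher and 16.3% lower with BCR-ABL1. The median log2 difference of the 7 genes was 0.15, against -0.008 over all tested genes. Lines of both groups did not overlap for 3 of the 7 genes and for 31.6% of all tested genes. Between SFPQ-ABL1 and BCR-ABL1, 6 of the 7 passed: Cxcr4, Ccl6 and Ccl9 were higher with SFPQ-ABL1, and Ccr1, Ccl3 and Ccl4 were lower. The corresponding share of all tested genes was 26.0%, with 13.2% higher and 12.8% lower. The median log2 difference of the 7 was -0.67, against 0.006 over all tested genes, and lines did not overlap for 4 of the 7 and for 27.9% of all. Between SFPQ-ABL1 and MSCV, edgeR called 0 of the 7, where 1.79% of all tested genes passed, 0.814% higher and 0.977% lower with SFPQ-ABL1. Lines did not overlap for 1 of the 7, Ccr1, which was lower with SFPQ-ABL1, and for 11.2% of all tested genes, with 6.24% of all in the lower direction. At an unadjusted p under 0.05 the count was 3 (Cxcr4, Ccr1 and Ccl6), where 18.6% of all tested genes lay under it. DESeq2 called 2 (Cxcr4, adjusted p = 0.00524, and Ccr1, adjusted p = 0.0245), out of 1131 calls among all genes, and limma-voom called 0. The median log2 difference was -0.79 over the 7 genes, against -0.002 over all tested genes. The comparisons share their groups in pairs and are not independent of each other. Because the genes were chosen with earlier results of these data known, their counts beside the shares of all genes are a description. Ccl4 passed the filter mainly through its BCR-ABL1 counts. Without BCR-ABL1 line 2, only 2 of the 7 passed between BCR-ABL1 and MSCV.

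**Figure D2:**
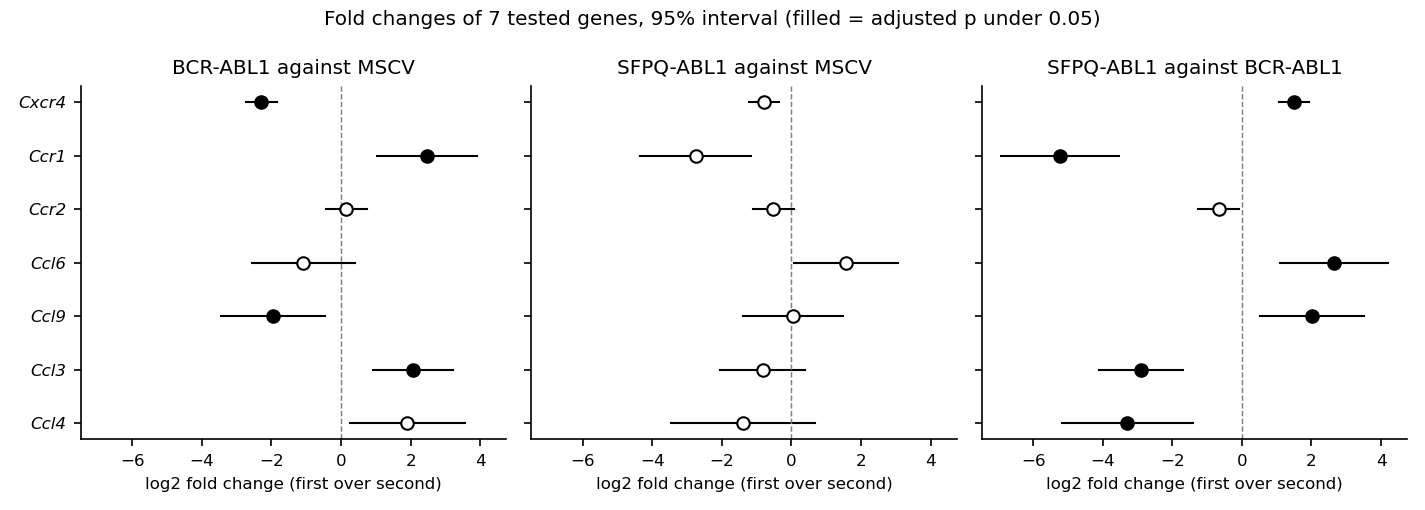
Fitted log2 fold changes (first group over second) of the 7 tested genes in the 3 comparisons, with 95% intervals. Filled points passed an adjusted p of 0.05. The middle panel, SFPQ-ABL1 against MSCV, has none, while Ccr1 lies at -5.22 and Ccl6 at 2.65 in the panel for SFPQ-ABL1 against BCR-ABL1.

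Ccl6 and Ccl9 lie next to each other on chromosome 11 and encode related CC ligands that attract myeloid cells in mice. Ccl6 (ENSMUSG00000018927) spans 83587882 to 83593087 and Ccl9 (ENSMUSG00000019122) spans 83572919 to 83578636, both on the minus strand. They are shown side by side because each was among the genes most like the other across the 12 libraries. The printed stretches are the last 150 bases of each RefSeq window (GRCm38.p6, minus strand, 5′ to 3′), chr11:83593038-83593187 for Ccl6 and chr11:83578587-83578736 for Ccl9. Capitals mark runs of at least 6 bases that both genes share in their best local alignment.
Ccl6: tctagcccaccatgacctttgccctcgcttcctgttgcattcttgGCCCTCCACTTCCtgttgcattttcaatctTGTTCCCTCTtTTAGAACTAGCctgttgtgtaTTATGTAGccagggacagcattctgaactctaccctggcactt
Ccl9: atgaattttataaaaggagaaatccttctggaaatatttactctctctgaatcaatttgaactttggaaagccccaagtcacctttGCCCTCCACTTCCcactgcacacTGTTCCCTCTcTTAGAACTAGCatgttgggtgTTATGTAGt
The alignment held 59 identical bases among 67 aligned, from 59 bases before to 15 bases after the start in Ccl6 and from 18 bases before to 49 bases after it in Ccl9. It scored highest of the 28 pairs among the 8 genes with a window, with 71.0 against 24.0 for the next pair. Ccl4 had no window. The Ccl9 window also held TATAAA, letters of an NF-kB motif (GGG, any 3 bases, TTCC, both strands, in 5.56% of all windows) and letters of an AP-1 motif (TGANTCA, both strands, in 7.81%), none of which the Ccl6 window held.

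Ccl6 differed between the fusion groups and varied widely within them. SFPQ-ABL1 lines 1 to 4 had 104, 48.2, 230 and 313 CPM of Ccl6. BCR-ABL1 lines 1 to 4 had 4.41, 34.2, 10.3 and 62 CPM, and MSCV lines 1 to 4 had 46.5, 44.6, 58.6 and 85 CPM. BCR-ABL1 line 4 lay above SFPQ-ABL1 line 2, so the fusion groups overlapped, and lines spread 14.1-fold within the BCR-ABL1 group. Ccl6 was 6.27-fold higher in SFPQ-ABL1 lines than in BCR-ABL1 lines (log2 fold change 2.65 ± 0.72 SE, edgeR adjusted p = 0.0165). Without BCR-ABL1 line 4 this log2 difference was 3.41. The differences of BCR-ABL1 from MSCV (log2 -1.08 ± 0.68 SE, edgeR adjusted p = 0.249) and of SFPQ-ABL1 from MSCV (log2 1.57 ± 0.69 SE, edgeR adjusted p = 0.245) did not pass. With SFPQ-ABL1 line 2 and BCR-ABL1 line 4 both left out, a choice made after seeing the data, BCR-ABL1 lines differed from MSCV lines by -1.84 (edgeR adjusted p = 0.0386).

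Ccl9 was lower in BCR-ABL1 lines than in the other groups, close to the threshold of the test. SFPQ-ABL1 lines 1 to 4 had 174, 114, 324 and 353 CPM of Ccl9. BCR-ABL1 lines 1 to 4 had 9.11, 95.2, 14.6 and 119 CPM, and MSCV lines 1 to 4 had 222, 126, 211 and 372 CPM. All BCR-ABL1 lines lay below all MSCV lines, while BCR-ABL1 line 4 lay above SFPQ-ABL1 line 2. Lines 1 and 3 of the BCR-ABL1 group had low levels of both Ccl6 and Ccl9, and lines 2 and 4 had higher levels of both. Ccl9 was 3.90-fold lower in BCR-ABL1 lines than in MSCV lines (log2 fold change -1.96 ± 0.69 SE, edgeR adjusted p = 0.0450) and 4.05-fold higher in SFPQ-ABL1 lines than in BCR-ABL1 lines (log2 fold change 2.02 ± 0.69 SE, edgeR adjusted p = 0.0477). Both calls held without SFPQ-ABL1 line 2, BCR-ABL1 line 4 or MSCV line 2. Both were lost when any one of the other 9 lines was left out, with log2 differences of -2.28 to -1.61 and adjusted p up to 0.113 for BCR-ABL1 against MSCV, and of 1.66 to 2.33 and adjusted p up to 0.108 for SFPQ-ABL1 against BCR-ABL1. Without BCR-ABL1 line 4 the log2 differences were -2.55 and 2.61. SFPQ-ABL1 and MSCV lines differed by 0.05 on the log2 scale (95% interval -1.39 to 1.49, edgeR adjusted p = 0.978).

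**Figure D3:**
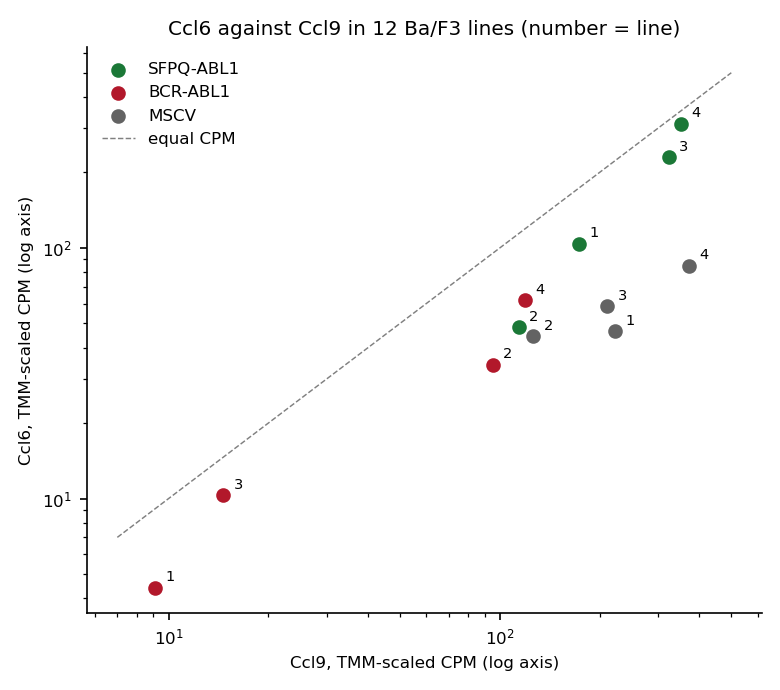
Ccl6 against Ccl9 in TMM-scaled CPM (both axes logarithmic), 1 point per line, with line numbers and a dashed line of equal CPM. BCR-ABL1 lines 1 and 3 lie lowest on both axes, and the 4 MSCV lines have 0.210 to 0.354 Ccl6 counts per Ccl9 count.

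The ratio of Ccl6 to Ccl9 counts within a library separated the fusion lines from the MSCV lines. It was 0.600, 0.422, 0.711 and 0.885 Ccl6 counts per Ccl9 count in SFPQ-ABL1 lines 1 to 4. The ratio was 0.484, 0.359, 0.706 and 0.519 in lines 1 to 4 with BCR-ABL1 and 0.210, 0.354, 0.278 and 0.229 in MSCV lines 1 to 4. Every fusion line lay above every MSCV line, with BCR-ABL1 line 2 just above MSCV line 2. The exact two-sided permutation test over lines gave p = 0.0286 for SFPQ-ABL1 against MSCV (log2 difference 1.27) and p = 0.0286 for BCR-ABL1 against MSCV (log2 difference 0.94), the smallest value that 4 lines against 4 allow. Adjusted over the 3 comparisons both became 0.0429. SFPQ-ABL1 and BCR-ABL1 overlapped (log2 difference 0.33, exact permutation p = 0.286). The ratio was chosen after the values had been seen, and it shows an unequal difference between the genes, not which of them differed.

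Ccl3 and Ccl4 encode ligands of the macrophage inflammatory protein group that attract leukocytes, and the product of Ccl3 acts on Ccr1 among other receptors. Both were rare transcripts and were highest with BCR-ABL1. Ccl3 (ENSMUSG00000000982, chromosome 11, 83647844 to 83649355, minus strand) had 0.0938, 0.169, 0.207 and 0.458 CPM in SFPQ-ABL1 lines 1 to 4. It had 0.485, 2.6, 1.4 and 2.4 CPM in BCR-ABL1 lines 1 to 4, and 0.529, 0.565, 0.238 and 0.292 CPM in MSCV lines 1 to 4. Every BCR-ABL1 line lay above every SFPQ-ABL1 line, and BCR-ABL1 line 1 lay within the range of the MSCV lines. Ccl3 was 4.22-fold higher in BCR-ABL1 than in MSCV lines (log2 fold change 2.08 ± 0.53 SE, edgeR adjusted p = 0.00921). In SFPQ-ABL1 lines its log2 difference from BCR-ABL1 was -2.91 ± 0.56 SE (edgeR adjusted p = 0.00253), and that from MSCV was -0.83 ± 0.56 SE, which did not pass (edgeR adjusted p = 0.453).

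Ccl4 (ENSMUSG00000018930, chromosome 11, 83662584 to 83664683, plus strand) had 0, 0.0779, 0.0365 and 0.0327 CPM in SFPQ-ABL1 lines 1 to 4, at most 6 counts. It had 0.0943, 0.507, 0.182 and 0.744 CPM in BCR-ABL1 lines 1 to 4, from 7 to 48 counts, and 0.227, 0.108, 0.0132 and 0.046 CPM in MSCV lines 1 to 4. BCR-ABL1 lines lay above all SFPQ-ABL1 lines and overlapped the MSCV lines. Ccl4 passed the filter mainly through its BCR-ABL1 counts, 104 of 145 over all libraries. Its call between the fusion groups is therefore given as a description. The log2 difference was -3.30 ± 0.87 SE for SFPQ-ABL1 against BCR-ABL1 (edgeR adjusted p = 0.0147), and -3.95 without SFPQ-ABL1 line 2. For BCR-ABL1 against MSCV it was 1.91 ± 0.76 SE and did not pass (edgeR adjusted p = 0.0724), but it passed without MSCV line 1 (log2 2.74, edgeR adjusted p = 0.0311) or without BCR-ABL1 line 1 (log2 2.23, edgeR adjusted p = 0.0382). SFPQ-ABL1 against MSCV gave -1.39 ± 0.95 SE (edgeR adjusted p = 0.465).

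Several genes of macrophages and monocytes were, like Ccr1, Ccl3 and Ccl4, highest on average in BCR-ABL1 lines, and the groups overlapped in their sum. The summed level of 10 such markers ran from 46.3 to 172 CPM in SFPQ-ABL1 lines, from 100 to 277 CPM in BCR-ABL1 lines and from 57.3 to 118 CPM in MSCV lines. A mean of at least 1 CPM was reached by 4 of the 10 with SFPQ-ABL1, by 5 with BCR-ABL1 and by 4 with MSCV. Adgre1, which encodes the macrophage surface protein F4/80, and Fcgr1, which encodes an IgG receptor, were the most abundant in BCR-ABL1 lines at 81.8 ± 52.3 and 73.5 ± 35.0 CPM (SD, n = 4). Lyz2, the lysozyme gene, was lowest there, at 23.8 CPM with SFPQ-ABL1, 15.1 CPM with BCR-ABL1 and 32.7 CPM with MSCV. Marco and Ly6c2 had no count in any library. Markers of mast cells and basophils (8 genes) summed to 10.1 to 15.0 CPM in SFPQ-ABL1 lines, 10.4 to 55.8 CPM in BCR-ABL1 lines and 14.8 to 34.1 CPM in MSCV lines, with Tpsb2 at 0 throughout. Markers of T and NK cells (8 genes) summed to 6.86 to 22.2 CPM in SFPQ-ABL1 lines, 4.69 to 11.2 CPM in BCR-ABL1 lines and 9.69 to 29.2 CPM in MSCV lines, with Cd8a and Ncr1 at 0 throughout, and 7 stromal markers summed to under 1 CPM in every line. The part of these markers in the chemokine results was not tested.

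Cxcl10 (ENSMUSG00000034855, chromosome 5, 92346638 to 92348889, minus strand), an interferon-induced ligand that attracts T cells, was close to the detection limit. The counts were 0, 3, 1 and 16 in SFPQ-ABL1 lines 1 to 4. Lines 1 to 4 with BCR-ABL1 had 4, 17, 8 and 12 counts, against 0, 1, 0 and 0 in MSCV lines 1 to 4. Every BCR-ABL1 line had more counts than any MSCV line, and SFPQ-ABL1 line 4 held 16 of the 20 counts of its group. An exact two-sided permutation test on CPM, chosen after the gene had missed the filter, gave p = 0.0286 for BCR-ABL1 against MSCV, the smallest value possible, and 0.0858 when adjusted over the 3 comparisons. The same exact permutation test gave p = 0.257 for SFPQ-ABL1 against MSCV and p = 0.343 for SFPQ-ABL1 against BCR-ABL1. With no filter on low counts, over 33507 genes, edgeR gave log2 4.85 for BCR-ABL1 against MSCV (adjusted p = 0.00659), 3.88 for SFPQ-ABL1 against MSCV (edgeR adjusted p = 0.169) and -0.97 for SFPQ-ABL1 against BCR-ABL1 (edgeR adjusted p = 0.528). The 41 BCR-ABL1 counts against 1 MSCV count make a depth-scaled ratio of 43.5, with a 95% interval from 7.38 to 1760 that covers counting error only. Cxcl10 overlaps Art3 on the opposite strand, which had 0 to 3 counts per library, and reads of overlapping genes cannot be told apart where strand was not used. In the exon table, the longest Cxcl10 entry held 8 counts in BCR-ABL1 lines and none in SFPQ-ABL1 or MSCV lines. Cxcr3, the receptor gene for Cxcl10, had no count in any library. The promoter window of Cxcl10 held an NF-kB match at 2 places (GGGAAATTCC and GGGGACTTCC), an interferon response match (GAAAGTGAAA, for the motif GAAA, any 2 bases, GAAA, in 3.44% of all windows) and an AP-1 match (TGAGTCA), all searched on both strands. The windows of Ccr1, Ccr2, Ccl3 and Ccl6 held none of the 6 motifs searched, which also included the STAT motif (TTC, any 3 bases, GAA, in 8.30% of all windows).

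Only chemokine and receptor genes were looked at among the neighbours of these genes on their chromosomes. On chromosome 9, 7 receptor genes were looked at from Ccr9 to Ccr2, and of these only Ccr1 and Ccr2 reached a mean of 1 CPM in any group. On chromosome 11, 3 of the 5 genes between Ccl5 and Ccl4 did so. In the cluster of CXC ligand genes on chromosome 5 between Cxcl5 and Cxcl2, Ppbp, Pf4 and Cxcl3 did so with BCR-ABL1 only, while Cxcl1 and Cxcl5 had no count anywhere. A second CXC cluster on the same chromosome holds Cxcl9, Cxcl10 and Cxcl11, none of which reached 1 CPM.

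**Figure D4:**
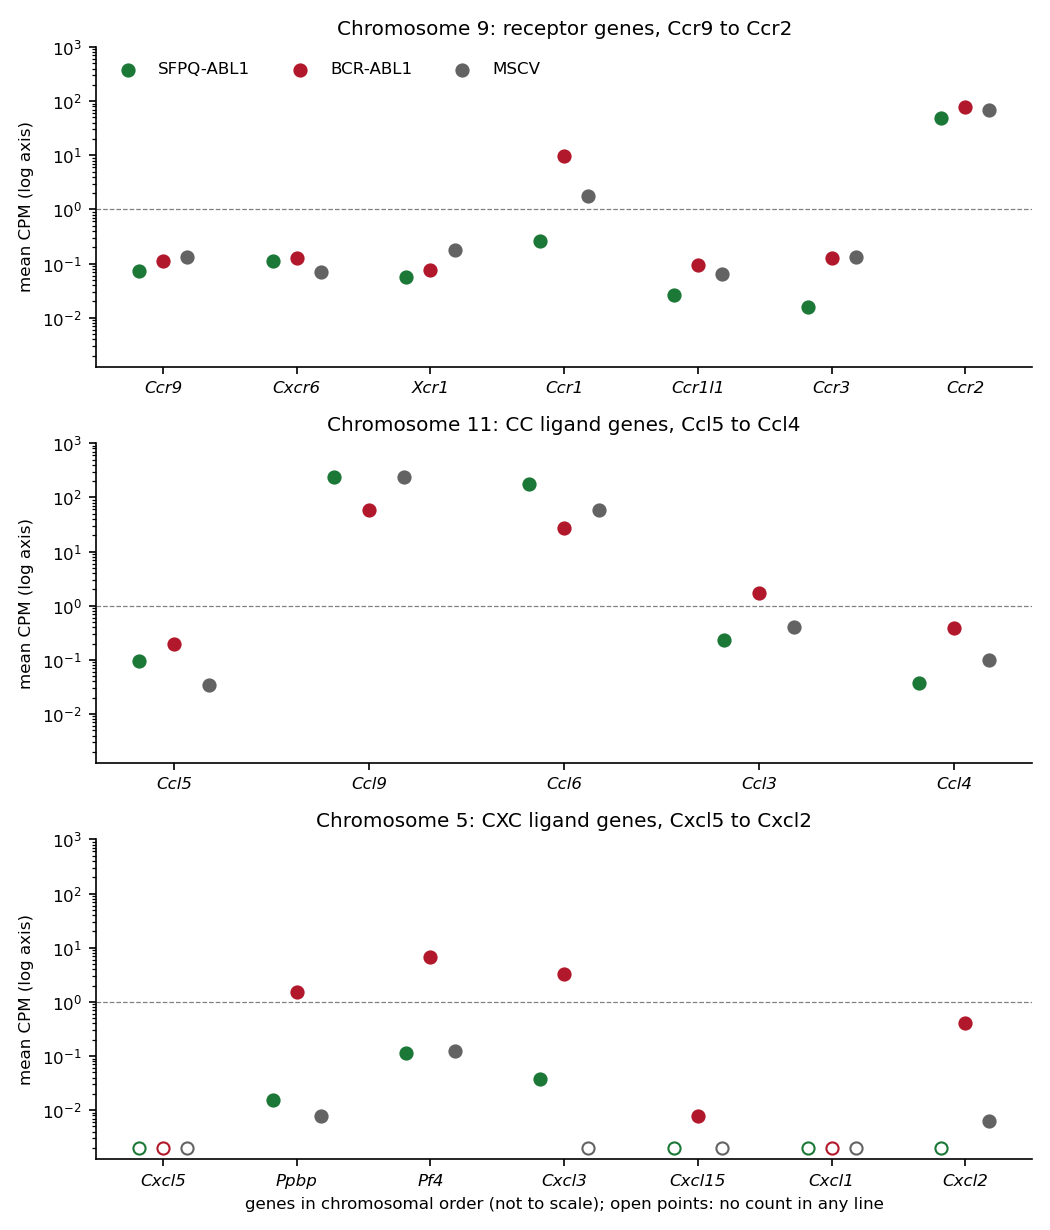
Mean TMM-scaled CPM (logarithmic axis, mean of 4 lines) of chemokine and receptor genes in chromosomal order, with SFPQ-ABL1, BCR-ABL1 and MSCV from left to right at each gene. Open points at the bottom have no count in any line of the group, and the dashed line is 1 CPM. Pf4, Ppbp and Cxcl3 exceed 1 CPM in BCR-ABL1 lines only, and Cxcl1 has no count in any line.

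Among 33 other chemokine genes, 14 had no count in any library and 8 passed the filter. The platelet granule genes Pf4 and Ppbp and the neutrophil attractant genes Cxcl2 and Cxcl3 were higher in BCR-ABL1 lines than in MSCV lines. These 4 passed the filter through their BCR-ABL1 counts, so that a difference was bound to appear, and they are given as a description. They were the only ones of the 8 called in that comparison. Of all tested genes 32.1% passed there, 15.8% higher and 16.3% lower with BCR-ABL1. Because of the filter, the count of 4 and these shares are not comparable. Pf4 had 0.0536, 0.195, 0.0365 and 0.180 CPM in SFPQ-ABL1 lines 1 to 4, 3.59, 6.80, 4.19 and 13.0 CPM in BCR-ABL1 lines 1 to 4, and 0.0881, 0.0538, 0.0661 and 0.292 CPM in MSCV lines 1 to 4. Every BCR-ABL1 line lay above every other line, 55.8-fold on average against MSCV (log2 fold change 5.80 ± 0.65 SE, edgeR adjusted p = 5.45e-05). Ppbp had 0 to 3 counts in SFPQ-ABL1 lines, 41 to 163 counts in BCR-ABL1 lines and 0 to 2 counts in MSCV lines. Its ratio of BCR-ABL1 to MSCV in summed counts was 220 (95% counting interval 60.6 to 1820). The fit over lines gave a log2 fold change of 7.47 ± 0.89 SE (edgeR adjusted p = 8.18e-05). Cxcl3 had 54 to 460 counts in BCR-ABL1 lines and none in any MSCV line. In summed counts it was at least 328-fold higher with BCR-ABL1 than the floor of 3 counts over the MSCV group. The separate fit over lines called Cxcl3 as higher (edgeR adjusted p = 0.000382). Cxcl2 had 16 to 47 counts in BCR-ABL1 lines, against 2 counts in all MSCV lines together (ratio 58.4, 95% counting interval 15.8 to 488). Of the 50-base stretches in Cxcl2 exons 5.84% also occur in Cxcl3, and 4.24% of those of Cxcl3 occur in other genes, Cxcl2 among them, so a small part of their reads may be shared.

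Lower in SFPQ-ABL1 than in BCR-ABL1 lines were Pf4 (log2 fold change -5.90 ± 0.65 SE, edgeR adjusted p = 0.000130), Ppbp, Cxcl3, Cxcl2 and, by 1.37-fold, Ccl25, a thymic and intestinal ligand gene (edgeR adjusted p = 0.00572). For Pf4, Ppbp, Cxcl3 and Cxcl2 this difference was also bound to appear through the filter, and it is given as a description. Of the 8 genes, 5 passed in that comparison, where 26.0% of all tested genes did. Since all of these but Ccl25 passed the filter through their BCR-ABL1 counts, the count and that share are not comparable. Cxcl2 had no count in SFPQ-ABL1 lines and was at least 39-fold lower there than in BCR-ABL1 lines, against a floor of 3 counts over the group. Between SFPQ-ABL1 and MSCV, edgeR called 0 of the 8, where 1.79% of all tested genes passed. At an unadjusted p under 0.05 the count was 0, where 18.6% of all tested genes lay under it, and DESeq2 and limma-voom called 0. Pf4, Ppbp, Cxcl2 and Cxcl3 had at most 19 counts in any SFPQ-ABL1 or MSCV line.

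Of 20 other chemokine receptor genes, 7 passed the filter. With BCR-ABL1, 2 rose and 1 fell against MSCV, 42.9% of the 7 where 32.1% of all tested genes passed. With single lines left out 1 to 3 passed, with 1 without MSCV line 3 and 2 without BCR-ABL1 line 1, BCR-ABL1 line 4 or MSCV line 4. Ccr7, which guides lymphocytes and dendritic cells to lymph nodes, had 0, 0.429, 0.0608 and 0.392 CPM in SFPQ-ABL1 lines 1 to 4. The level was 0.566, 3.88, 1.88 and 2.53 CPM in lines 1 to 4 with BCR-ABL1 and 0.126, 0.0941, 0.145 and 0.276 CPM in MSCV lines 1 to 4. BCR-ABL1 lines lay above all others, 13.8-fold higher than MSCV lines (log2 fold change 3.79 ± 0.82 SE, edgeR adjusted p = 0.00374), and SFPQ-ABL1 lines were 10.1-fold lower than BCR-ABL1 lines (edgeR adjusted p = 0.00860). Ccr4, a receptor of T helper cells, averaged 9.48 CPM with SFPQ-ABL1, 11.5 CPM with BCR-ABL1 and 4.12 CPM with MSCV (BCR-ABL1 2.79-fold higher than MSCV, edgeR adjusted p = 0.0200). For SFPQ-ABL1 against MSCV its log2 difference of 1.20 ± 0.43 SE did not pass (edgeR adjusted p = 0.163). Ccrl2, which binds chemerin without G protein signalling, averaged 7.45 CPM with SFPQ-ABL1, 7.60 CPM with BCR-ABL1 and 11.8 CPM with MSCV (BCR-ABL1 against MSCV log2 fold change -0.63 ± 0.19 SE, edgeR adjusted p = 0.0232). Its log2 difference of -0.66 ± 0.19 SE between SFPQ-ABL1 and MSCV did not pass (edgeR adjusted p = 0.0972). Cxcr2, the receptor gene for the products of Cxcl2, Cxcl3 and Ppbp, averaged 14.5 CPM with SFPQ-ABL1, 19.3 CPM with BCR-ABL1 and 14.4 CPM with MSCV, and no comparison of it passed. Between SFPQ-ABL1 and BCR-ABL1, Ccr7 alone of the 7 passed with all 12 libraries, 14.3% of the 7 where 26.0% of all tested genes passed. The count stayed at 1 without BCR-ABL1 line 4, MSCV line 2 or MSCV line 3, was 3 without MSCV line 4 and 2 without any one of the other 8 lines. Between SFPQ-ABL1 and MSCV, edgeR called 0 of the 7, where 1.79% of all tested genes passed. At an unadjusted p under 0.05 the count was 2, where 18.6% of all tested genes lay under it. DESeq2 called 1 and limma-voom called 0. The median log2 difference of the 7 receptor genes was 0.32 for BCR-ABL1 against MSCV, 0.01 for SFPQ-ABL1 against MSCV and -0.41 for SFPQ-ABL1 against BCR-ABL1.

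Of 33 genes listed that act downstream of chemokine receptors, 32 passed the filter, and 3 rose and 10 fell in BCR-ABL1 lines against MSCV lines, 40.6% of the 32 where 32.1% of all tested genes passed. Arrb2, which encodes a beta-arrestin that ends receptor signalling, had 84.4, 125, 77.5 and 87.0 CPM in SFPQ-ABL1 lines 1 to 4, 225, 177, 215 and 206 CPM in BCR-ABL1 lines 1 to 4, and 88.5, 85.0, 86.6 and 78.0 CPM in MSCV lines 1 to 4. BCR-ABL1 lines did not overlap the others (log2 fold change 1.28 ± 0.14 SE against MSCV, edgeR adjusted p = 4.24e-05, and -1.14 ± 0.14 SE for SFPQ-ABL1 against BCR-ABL1, edgeR adjusted p = 0.000181). Pik3cg, the catalytic subunit of the PI 3-kinase that G protein beta-gamma subunits activate, averaged 232 CPM with SFPQ-ABL1, 435 CPM with BCR-ABL1 and 180 CPM with MSCV. It was 2.42-fold higher with BCR-ABL1 than with MSCV (edgeR adjusted p = 0.000182). The small GTPase gene Rac2 averaged 379 CPM with BCR-ABL1 and 656 CPM with MSCV (log2 fold change -0.79 ± 0.12 SE, edgeR adjusted p = 0.000504). Rgs2, a brake on G protein signalling, averaged 31.9 CPM with SFPQ-ABL1, 24.9 CPM with BCR-ABL1 and 53.6 CPM with MSCV. Rgs2 fell in both fusion groups against MSCV (BCR-ABL1 log2 fold change -1.11 ± 0.15 SE, edgeR adjusted p = 0.000153, and SFPQ-ABL1 log2 fold change -0.75 ± 0.14 SE, edgeR adjusted p = 0.0267). Rgs2 alone of the list passed between SFPQ-ABL1 and MSCV, 3.12% of the 32 where 1.79% of all tested genes passed. No gene of the list passed there when any one of SFPQ-ABL1 lines 1, 3 and 4 or MSCV lines 2, 3 and 4 was left out, and 3 passed without SFPQ-ABL1 line 2. Between SFPQ-ABL1 and BCR-ABL1, 8 of the 32 were higher and 3 lower with SFPQ-ABL1, 34.4% of the 32 where 26.0% of all tested genes passed. The median log2 difference of the 32 was -0.07 for BCR-ABL1 against MSCV, -0.13 for SFPQ-ABL1 against MSCV and -0.06 for SFPQ-ABL1 against BCR-ABL1. Rgs1, another brake on G protein signalling, chosen after its values were seen, had 0.388, 48.4, 2.47 and 3.21 CPM in SFPQ-ABL1 lines 1 to 4, 20.3 to 87.2 CPM in BCR-ABL1 lines and 5.4 to 32.7 CPM in MSCV lines. No comparison of Rgs1 passed (log2 -2.25 ± 1.05 SE for SFPQ-ABL1 against BCR-ABL1, edgeR adjusted p = 0.133). Between SFPQ-ABL1 and BCR-ABL1, Plcb3, a phospholipase C gene, was 1.34-fold higher (edgeR adjusted p = 0.00322), and Tiam1, a Rac activator gene, was 1.61-fold lower (edgeR adjusted p = 0.00307).

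The likeness of patterns across the 12 libraries was described by the root-mean-square difference of centred log2 CPM over 11599 candidate genes, with 0 for an identical pattern. The difference depends on the spread of the gene itself, so values of different genes are not comparable. That spread (root-mean-square of centred log2 CPM) was 0.99 for Cxcr4, 2.49 for Ccr1, 0.5 for Ccr2, 1.35 for Ccl3, 1.38 for Ccl4, 1.62 for Ccl6 and 1.63 for Ccl9. The closest to Cxcr4 were Klk1b22 at 0.24, Ift80 at 0.25 and Hdac7 at 0.27. The closest to Ccr1 were Spp1 at 0.97, Lgmn at 1.04 and Vegfc at 1.07, and the closest to Ccr2 were Rbm8a2 and Sh3bp5 at 0.25 and Pcbp4 at 0.28. Ccl9 was first in the order for Ccl6 and Ccl6 was second in that for Ccl9, at 0.64. The others named were C1rl (0.76) and Gab3 (0.78) for Ccl6, and Gpha2 (0.63) and Aff3 (0.66) for Ccl9. Gpha2 was a rare transcript, from 0 to 0.478 CPM. Ccl3 was first in the order for Ccl4 at 0.60, followed by Htatip2 at 0.66 and Cd53 at 0.68. Ccl4 was eighth for Ccl3, behind Rasgrp4 at 0.54 and Gpat3 and Traf1 at 0.55. The values describe these libraries, which share the same 3 groups.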

How the data were processed

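The authors' tools were Subread and featureCounts and their build was mm10, per the submitters' processing notes. Not given in the sources used here are tool versions, the annotation, strand use and the rule for multi-mapping reads. The deposited tables hold raw counts per Ensembl gene and per Ensembl exon, not normalized, per the file headers. Exon counts total 18% of gene counts, and overlapping exon entries can hold the same reads. Symbols and coordinates came from GENCODE M21 (55230 of 55471 identifiers).

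Counts were filtered (filterByExpr), scaled (TMM) and tested with edgeR 4.0.16 (R 4.3.3), quasi-likelihood, group as the only term, all 12 libraries, 17197 genes. Adjusted p is Benjamini-Hochberg, two-sided, called under 0.05. Alternatives used DESeq2 1.42.0, limma 3.58.1 (voom), other scalings, no filter, the 8 libraries compared, a replicate block, the exon table and each line left out. On simulated data the edgeR test recovered 65% of 100 genes changed 2-fold and 87% of 100 changed 4-fold for BCR-ABL1 against MSCV. These were a far smaller share of all genes than the 32.1% called in the data, so recovery there can differ. Intervals on counts cover counting error only.

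No pair of lines in a group agreed within sampling noise: the 18 pairs had a chi-square of 33.1 to 182 per degree of freedom. The labels call the lines biologically independent. The genes, lists and comparisons were chosen with earlier results of these data known. Named were the 9 genes, per list and comparison up to 4 called genes of at least 1 CPM with the smallest adjusted p, and the 3 genes most like each; Cxcl2, Cxcl12, Cxcr2 and Cxcr3 were named as neighbours, ligands or receptors after their values were seen. Promoter windows came from RefSeq (GRCm38.p6), for 8 of the 9 genes.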

Additional observations from a re-analysis of the deposited data

Results flagged for a closer look

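Cxcl10 in SFPQ-ABL1 line 4 lay far from the other lines of its group, at 0.262 CPM (16 counts) against 0 to 0.039 CPM. Cxcl10 in MSCV line 2 stood apart as well, at 0.0134 CPM, which is 1 count, where the other MSCV lines had none. These were 2 of 24 sets of 4 lines examined, 1 per gene and group. Chance alone marks about 1 in 20 where values are normally distributed, which was not tested for these sets. A single count among lines that otherwise have none always marks a set, so that rate does not apply to MSCV line 2.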

How the results depend on the processing

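The calls for Cxcr4 in BCR-ABL1 against MSCV (log2 -2.45 to -2.20) and in SFPQ-ABL1 against BCR-ABL1 (1.41 to 1.64) kept direction and threshold when each line was left out and under the 9 other alternatives. The count of chemokine genes called between SFPQ-ABL1 and MSCV was 0, but 2 with no filter on low counts, 2 with DESeq2, 1 on the exon table and 1 without SFPQ-ABL1 line 2 and BCR-ABL1 line 4 together. Leaving out single lines gave 0 to 1 there, 2 to 5 for BCR-ABL1 against MSCV and 5 to 7 for SFPQ-ABL1 against BCR-ABL1. All genes called between SFPQ-ABL1 and MSCV numbered 308, but 110 with only the 8 libraries compared, 1131 with DESeq2, 157 on the exon table, 498 without both of those lines, and 33 to 467 with single lines left out. Between SFPQ-ABL1 and BCR-ABL1 the exon table gave 2618 in place of 4471. The cause of these shifts was not tested.

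Line numbers were not taken as pairs, since 7 of 12 and not all same-number pairs had a correlation of deviations over 0.1 (range -0.01 to 0.38). That 9 of 12 libraries lay closest to their own number is a hint from the data, not the design. With a replicate block, SFPQ-ABL1 against MSCV had 726 genes called and 1 chemokine gene, Ccr1 (log2 -3.19, edgeR adjusted p = 0.00941). The sign turned for Ccr2 in BCR-ABL1 against MSCV without MSCV line 4 (-0.05), (single lines left out gave -0.05 to 0.33), and for Ccl9 in SFPQ-ABL1 against MSCV (-0.19 to 0.37) without SFPQ-ABL1 line 3 (-0.13), SFPQ-ABL1 line 4 (-0.19) or MSCV line 2 (-0.15), none of which was called. Ccr2 in SFPQ-ABL1 against BCR-ABL1 was called by DESeq2 (adjusted p = 0.0482). With only the 8 libraries compared, Ccl9 lost both calls (edgeR adjusted p = 0.0624 and 0.0757). With exon counts, only 1 of the other chemokine genes was called, for BCR-ABL1 against MSCV as for SFPQ-ABL1 against BCR-ABL1, where fewer counts remained. Of the other receptor genes exon counts gave 1 in place of 3 and 0 in place of 1 in the same comparisons, and no filter gave 2 in place of 1 for SFPQ-ABL1 against BCR-ABL1. Depth limits statements on Cxcl10, Ackr3 and Ccl4.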

Other observations

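Among the BCR-ABL1 lines, line 1 had the lowest values of Ccr1 (3.77 CPM), Ccl3 (0.485 CPM), Ccl4 (0.0943 CPM), Ccl6 (4.41 CPM), Ccl9 (9.11 CPM) and Cxcl10 (0.0539 CPM) and the highest value of Cxcr4 (111 CPM). The same line was lowest for the other chemokine genes Pf4, Ppbp, Cxcl2 and Cxcl3, at 3.59, 0.553, 0.216 and 0.728 CPM, and for the receptor gene Ccr7 at 0.566 CPM. Line 1 was not the lowest for every gene, as with Ccr2 (75.5 CPM, against 45.6 CPM in line 4) and Cxcr2 (15.6 CPM, against 8.06 CPM in line 2). This order of lines was noticed in the data and has no test. E230016K23Rik, a transcript on the strand opposite Ccl6 and overlapping it, had 0 to 23 counts per library.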
